A study of Mus musculus with 4 samples.

Results

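Integrins and the proteins of the basement membrane were followed here across 4 libraries of mouse brain RNA. The genes were all those of the count table whose mouse symbol begins with Itga or Itgb and a digit, with Lama, Lamb or Lamc and a digit, or with Col4a and a digit, together with Nid1, Nid2, Fn1 and Dag1, while names beginning with Itgb1bp were left out. Of the 12700 genes of the table, 28 met this rule, and all 28 had reads in every library. They were 9 integrin alpha chains, 6 integrin beta chains, 7 laminin chains, 2 collagen IV chains, nidogen-1 (Nid1), fibronectin (Fn1), dystroglycan (Dag1) and Itgb3bp, which met the rule by its symbol only, since it encodes a centromere protein and no integrin. The other 15 symbols that fit the rule, Col4a3, Col4a4, Col4a5, Col4a6, Itga2, Itga2b, Itga11, Itgb2l, Itgb6, Itgb7, Lama1, Lama3, Lama4, Lamb3 and Nid2, were not analysed here.

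The mice were C57BL/6, aged 9 months, and either Ids-/- (Ids-ko, labelled H) or wild type littermates (WT), the first being a model of mucopolysaccharidosis type II. Ids encodes iduronate 2-sulfatase, a lysosomal enzyme of heparan and dermatan sulfate breakdown, and its disruption was present in the whole animal. From each genotype the cerebral cortex (Cx) and a combined area of midbrain, diencephalon and hippocampus (M) were taken, and the RNA of 7 mice was pooled into 1 library for each of the labels CxH, CxWT, MH and MWT. There were therefore no replicates. A difference between libraries could not be set against the variation between pools, and every error given is a counting error.

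An integrin is a receptor made of an alpha and a beta chain, which spans the cell membrane and links proteins outside the cell to the actin skeleton. The basement membrane is a thin sheet in which laminin, a trimer of an alpha, a beta and a gamma chain, and collagen IV form networks joined by nidogen and by heparan sulfate proteoglycans. In the brain it surrounds the capillaries and lies under the meninges, where integrins and dystroglycan anchor the endfeet of astrocytes, and the choroid plexus has one as well.

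The libraries held between 16380080 and 23475080 reads on genes, which was between 56.6 and 61.0% of their aligned reads. Levels are given as RPM, reads per 1000000 aligned reads, with exact Clopper-Pearson 95% intervals, and a count of 3 reads was worth between 0.0779 and 0.104 RPM. Ids stood at 135 RPM in CxH against 354 in CxWT, and 368 in MH against 155 in MWT, so in M it was higher in the library labelled Ids-ko, contrary to the label. A list of 15 markers of cortical neurons summed to 2454 RPM in CxH against 530.1 in CxWT, and 2258 in MH against 462.5 in MWT. A list of 21 markers of midbrain and diencephalon neurons, 17 of them in the table, summed to 29.6, 558.4, 41.8 and 482.5 RPM in the same order. By these lists CxH resembled MH and CxWT resembled MWT, whatever area the labels gave. Groups are named here by their labels only, and for no difference between CxH and CxWT, or between MH and MWT, can the genotype and the tissue content be told apart.

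A gene was called higher or lower when a likelihood ratio test on the Poisson counts of 2 libraries gave a p-value below 0.05 and its log2 ratio had a size of 0.7 or more, which are the test and thresholds used by the study. Such a call compares the 2 libraries and not the conditions. In CxH vs. CxWT, 7 of the 28 genes were called higher (25.0%, with 9.46% of all genes as the background) and 4 were called lower (14.3%, with a background of 11.5%). In MH vs. MWT, 7 were called higher (25.0%, with a background of 12.3%) and 1 was called lower (3.57%, with a background of 12.7%). Between libraries of 1 genotype label, CxH vs. MH had 2 called higher (7.14%, background 2.43%) and 2 called lower (7.14%, background 1.06%), and CxWT vs. MWT had 4 called higher (14.3%, background 5.43%) and 1 called lower (3.57%, background 2.11%). After correction of the ratios for GC content and transcript length, which could be made for 12348 genes, the counts called higher and lower in MH vs. MWT were 3 and 3, where the background was 8.31 and 10.0%. They were 7 and 3 in CxH vs. CxWT (background 8.20 and 9.15%), in CxWT vs. MWT 0 and 1 (1.66 and 1.43%) and in CxH vs. MH 2 and 1 (1.49 and 0.980%). The median log2 ratio of the 28 genes was 0.087 in CxH vs. CxWT and 0.23 in MH vs. MWT, where all genes had medians of -0.093 and -0.066. For CxH vs. MH and CxWT vs. MWT it was -0.0011 and 0.25, and over all genes 0.015 and 0.045. These medians are as measured, without the GC correction. In MH vs. MWT most of the 28 ratios were positive as measured, but most were negative after that correction. The 4 comparisons share libraries, so their values are set side by side and were not tested against each other.

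In all, 16 of the 28 genes were called in at least 1 comparison, where 34.9% of all genes were, and 12 in none. MWT had the lowest RPM of the 4 libraries for 15 of the 28 genes (53.6%), against 33.2% of all genes, and CxH had the highest for 10 (35.7%), against 27.7%. The summed level of the 28 genes was 624.2 RPM in CxH against 580.6 in CxWT, and 581.3 in MH against 493.2 in MWT. Among the genes described here, the ratio of the highest to the lowest library was 4.16 for Itga8, 3.08 for Itga5, 2.86 for Itga4 and 2.64 for Itga3. The steadiest were Lama2 (1.13), Nid1 (1.17), Itga1 (1.19) and Itga9 (1.21).

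**Figure D1:**
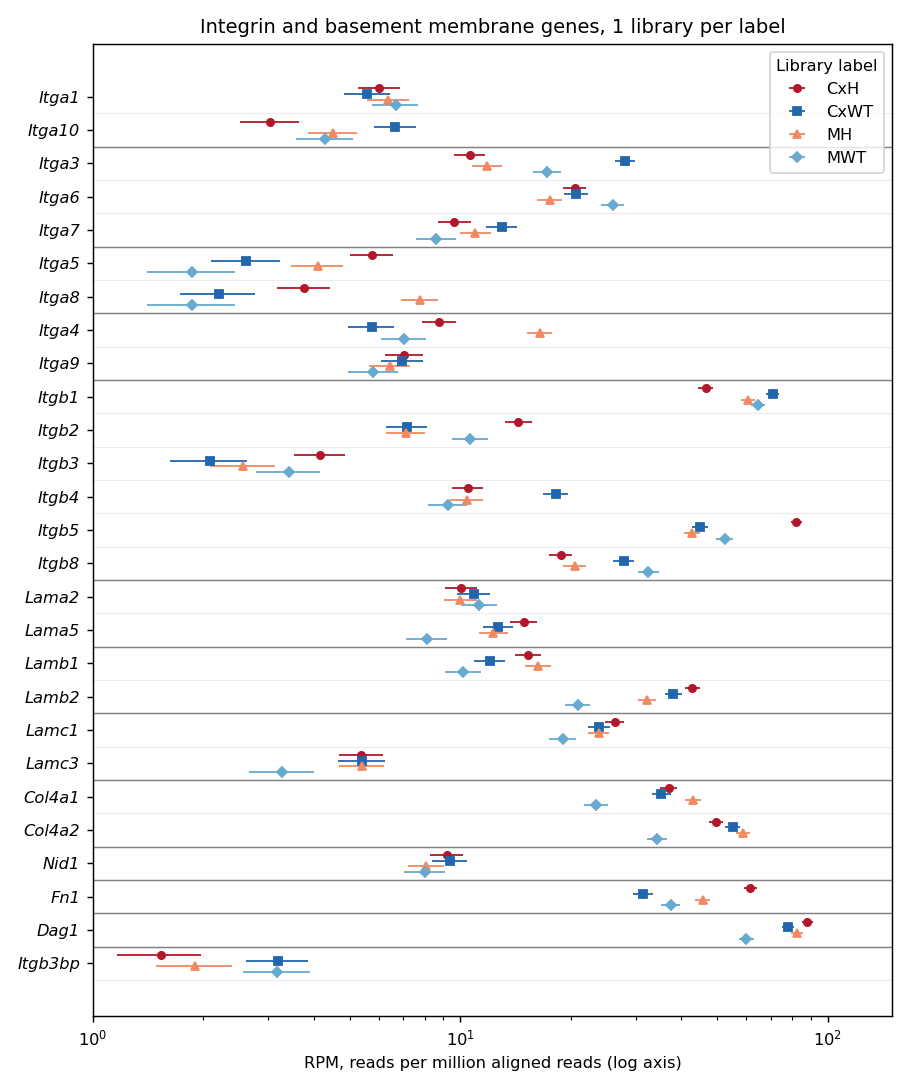
Level of 27 of the genes in each library, in RPM on a log axis, with exact 95% counting intervals as bars and 1 row per gene, grouped by role. Itga8 sits at 7.76 RPM in MH and at or under 3.77 RPM in the other libraries, and Itgb5 sits at 82.2 RPM in CxH and at or under 52.4 RPM in the other libraries.

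On the scale of mean RPM per kb of the longest protein-coding transcript, which allows genes to be compared, the highest levels were those of Itgb5 (18.0), Dag1 (17.5) and Itgb1 (15.9). Their order differed between libraries, with Itgb5 first in CxH (26.6), Itgb1 in CxWT (18.6), Dag1 in MH (18.7), and Itgb5 and Itgb1 level in MWT (16.9 each). Col4a2 (7.67), Lamb2 (5.96), Fn1 (5.30), Col4a1 (5.24) and Itga6 (4.92) followed. The lowest were Itgb3 (0.53), Itga8 (0.67), Itga5 (0.82) and Lamc3 (0.83).

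Among the laminins, Lamc1 encodes the gamma-1 chain found in most laminins, and lies at chr1:155066052-155179916 in NCBIM37 (mm9). It had 26.3 RPM in CxH against 23.8 in CxWT, and 23.8 in MH against 19.0 in MWT, and was called in no comparison (0.14 ± 0.07 in CxH vs. CxWT and 0.33 ± 0.08 in MH vs. MWT, which were 0.013 and -0.04 with the GC correction). In this bulk RNA, fewer cells of a type and less RNA per cell cannot be told apart, for this gene or any other. Lamc3, the gamma-3 chain, had 5.38, 5.41, 5.41 and 3.28 RPM across CxH, CxWT, MH and MWT, so that MWT was low and the other libraries alike. It was called higher in MH than in MWT (0.72 ± 0.18, counting SE) and in CxWT than in MWT (0.72 ± 0.18), but with the GC correction these were 0.06 and 0.23 and were not called, and both calls were also lost with column totals as library totals or under an assumed variation of 0.2 between pools. Its annotated exons share up to 382 bases with Gm13441 on the other strand, and strand use in the counting is not given in the sources used here, so reads in that shared stretch cannot be told apart.

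Among the beta chains of laminin, Lamb2, the beta-2 chain of vascular and synaptic basement membranes, had 42.9 RPM in CxH against 38.0 in CxWT, and 32.2 in MH against 20.9 in MWT. It was called in CxWT vs. MWT only, at 0.87 ± 0.07, and its ratio in MH vs. MWT was 0.63 ± 0.07. With the GC correction these values were 0.35 and -0.05. Lamb1, the beta-1 chain, had 15.3, 12.02, 16.3 and 10.2 RPM in the same order, and its ratio in MH vs. MWT, 0.68 ± 0.10, was just under the threshold, while that of Lamc3 was just over it. The Lamb1 ratio passed the threshold with TMM factors or DESeq2 size factors, but was 0.40 with the GC correction. Per kb, Lamb2 exceeded Lamb1 in each library, 2.88 times in CxH and 3.26 in CxWT, but 2.03 in MH and 2.11 in MWT.

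Lama5, the alpha-5 chain of mature vessel walls, was at 14.9, 12.7, 12.3 and 8.12 RPM across CxH, CxWT, MH and MWT, with its lowest level in MWT and no call (0.60 ± 0.12 in MH vs. MWT and 0.64 ± 0.12 in CxWT vs. MWT, which the GC correction turned to -0.30 and -0.05). Lama2, the alpha-2 chain whose loss causes a congenital muscular dystrophy, was at 10.1, 10.9, 10.01 and 11.3 RPM, with intervals that all overlapped. Per kb, Lama5 stood at 1.26 of Lama2 in CxH against 0.992 in CxWT, and 1.05 in MH against 0.615 in MWT. These ratios are as measured, and with the GC correction Lama2 had -0.31 in MH vs. MWT and -0.13 in CxWT vs. MWT, close to the corrected values of Lama5.

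The 2 collagen IV genes of the table, Col4a1 and Col4a2, encode the alpha-1 and alpha-2 chains, which twist into the most common collagen IV trimer. Col4a1 had 1422 reads in CxH against 1186 in CxWT, and 1607 in MH against 677 in MWT, or 36.9, 35.3, 43.0 and 23.4 RPM. Col4a2 had 1915, 1853, 2197 and 992 reads, or 49.7, 55.1, 58.8 and 34.3 RPM. For both genes MWT stood below the other 3 libraries and MH was the highest. Both were called higher in MH than in MWT, at 0.88 ± 0.07 for Col4a1 and 0.78 ± 0.06 for Col4a2. In CxH vs. CxWT the ratios were 0.07 ± 0.06 and -0.15 ± 0.05 (-0.22 and -0.50 with the GC correction), and in CxWT vs. MWT 0.59 ± 0.07 and 0.69 ± 0.06, the last just under the threshold. With the GC correction those in CxWT vs. MWT were 0.12 and 0.04. After the GC correction the ratios in MH vs. MWT were 0.24 for Col4a1 and -0.06 for Col4a2, and neither was called. Under that variation of 0.2 the call of Col4a2 was lost as well. Col4a2 has the highest GC content of the 28 transcripts, 60.6%. Of the reads of both genes, Col4a2 took 57.4% (55.7 to 59.1) in CxH against 61.0% (59.2 to 62.7) in CxWT, and 57.8% (56.2 to 59.3) in MH against 59.4% (57.0 to 61.8) in MWT.

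Col4a1 and Col4a2 lie head to head on chromosome 8, at chr8:11198423-11312826 on the minus strand and chr8:11312805-11449287 on the plus strand in NCBIM37, and their annotated ends overlap by 22 bases. The RefSeq windows of 300 bases around their start sites overlap on opposite strands in GRCm38.p6. They are printed because the pair is known to share a promoter between them, and capitals mark the 78 bases that both windows hold, as reverse complements of each other. The first is chr8:11312777-11313076 on the minus strand and the second is chr8:11312555-11312854 on the plus strand.
Col4a1: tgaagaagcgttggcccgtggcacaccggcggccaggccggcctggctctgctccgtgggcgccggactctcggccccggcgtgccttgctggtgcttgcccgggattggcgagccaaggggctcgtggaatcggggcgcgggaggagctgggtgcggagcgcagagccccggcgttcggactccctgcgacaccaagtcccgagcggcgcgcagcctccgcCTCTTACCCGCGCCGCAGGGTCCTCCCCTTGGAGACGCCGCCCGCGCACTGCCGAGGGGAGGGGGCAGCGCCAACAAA
Col4a2: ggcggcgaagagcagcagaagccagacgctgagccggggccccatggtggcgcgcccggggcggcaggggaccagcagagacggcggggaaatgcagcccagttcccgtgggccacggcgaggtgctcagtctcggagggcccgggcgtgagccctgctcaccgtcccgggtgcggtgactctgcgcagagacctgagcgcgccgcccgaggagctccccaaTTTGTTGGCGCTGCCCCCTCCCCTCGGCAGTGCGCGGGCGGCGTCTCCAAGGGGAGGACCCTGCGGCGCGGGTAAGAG

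Marker lists of the cells that build or line basement membranes in brain were set beside these genes. The 15 endothelial markers summed to 439.1 RPM in CxH against 349 in CxWT, and 364 in MH against 344.7 in MWT, with 1 called higher and 1 called lower in MH vs. MWT and 4 called higher in CxH vs. CxWT. The mural list, of pericytes and smooth muscle, had 11 of 13 markers in the table and summed to 191.1, 155.2, 167.3 and 141.2 RPM. For meningeal and perivascular fibroblasts, 9 of 12 markers were in the table and summed to 162.7, 148.7, 156.4 and 142.6 RPM, without the defining Col1a1 and Col3a1, which were not analysed here. For the choroid plexus, an epithelium with its own basement membrane, 10 markers summed to 591.5, 150.3, 646.8 and 275.8 RPM, most of it from Ttr, named here after its values were seen, and the other 9 summed to 54.4, 37.7, 64.2 and 55 RPM. Of these 10 markers, 6 were called higher and 1 lower in CxH vs. CxWT, and 5 and 1 in MH vs. MWT, the lower one being Otx2 in both (-1.97 ± 0.17 and -1.57 ± 0.16). Of all genes, 9.46% were called higher and 11.5% lower in CxH vs. CxWT, and 12.3 and 12.7% in MH vs. MWT. No marker of these 4 lists was at 0 in any library, and their part in the levels of the collagen IV and laminin genes was not tested.

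Nid1, which joins laminin to collagen IV, was at 9.19 RPM in CxH against 9.37 in CxWT, and 8.08 in MH against 8.02 in MWT, and its log2 ratios lay between -0.03 and 0.23. Dag1, the precursor of both dystroglycan subunits, had 3387 reads in CxH against 2627 in CxWT, and 3082 in MH against 1739 in MWT, or 88.0, 78.1, 82.5 and 60.1 RPM. MWT was again the lowest, but the ratios of Dag1 stayed under the threshold, with 0.17 ± 0.04 in CxH vs. CxWT, 0.46 ± 0.04 in MH vs. MWT, 0.38 ± 0.04 in CxWT vs. MWT and 0.09 ± 0.04 in CxH vs. MH. With the GC correction the ratio in MH vs. MWT was 0.12.

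Fn1 encodes fibronectin, a ligand of integrins with the alpha-5, alpha-8, alpha-4 and alpha-V chains and a major plasma protein as well. It had 2370 reads in CxH against 1057 in CxWT, and 1706 in MH against 1083 in MWT, or 61.6, 31.4, 45.7 and 37.4 RPM. CxH was the highest library, MH the next, and the intervals of all 4 lay apart. Fn1 was called higher in CxH than in CxWT, 1.96-fold (0.97 ± 0.05), and its ratio in MH vs. MWT was 0.29 ± 0.06. The last value was -0.13 with the GC correction, and that of CxH vs. CxWT was 0.83 and was still called. The annotated exons of Fn1, at chr1:71632094-71699774 in NCBIM37, share up to 197 bases with Apol7d on the other strand.

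**Figure D2:**
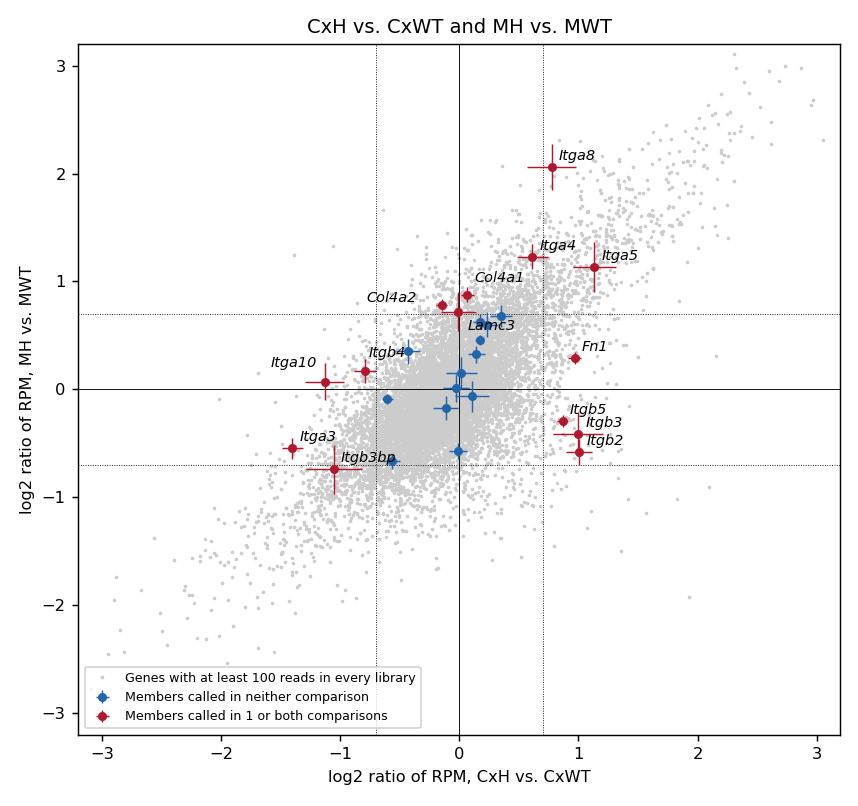
Log2 ratio of RPM in CxH vs. CxWT (x axis) against MH vs. MWT (y axis). Grey points are genes that had 100 or more reads in each library, red points are members called in either comparison, blue points are the other members, bars are counting SEs and dotted lines mark log2 ratios of 0.7 in size. Itga5 and Itga8 lie at the upper right, Itga3 and Itgb3bp at the lower left, and Itgb2, Itgb3 and Itgb5 to the right and under the horizontal axis.

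The alpha chains that bind the RGD sequence of fibronectin and related ligands were Itga5, which pairs with beta-1 as the main fibronectin receptor, and Itga8. Itga5 had 221 reads in CxH against 88 in CxWT, and 153 in MH against 54 in MWT, or 5.74, 2.62, 4.09 and 1.87 RPM. It was called higher in CxH than in CxWT (1.13 ± 0.18) and higher in MH than in MWT (1.13 ± 0.23), although with the GC correction the second ratio was 0.61 and was not called. Itga8, which pairs with beta-1 and takes part in kidney development, had 145, 74, 290 and 54 reads, or 3.77 (3.18 to 4.43), 2.20 (1.73 to 2.76), 7.76 (6.89 to 8.71) and 1.87 (1.40 to 2.43) RPM. MH was the highest library for Itga8 and CxH the next, while CxWT and MWT overlapped. Itga8 was called higher in MH than in MWT, 4.16-fold (2.06 ± 0.21), higher in CxH than in CxWT (0.77 ± 0.21) and lower in CxH than in MH (-1.04 ± 0.15). The call in CxH vs. CxWT was lost under an assumed biological coefficient of variation of 0.2 between pools. Up to 344 bases of its annotated exons lie opposite E030013I19Rik on the other strand. The summed level of Itga5 and Itga8 was 9.51 RPM in CxH against 4.82 in CxWT, and 11.9 in MH against 3.73 in MWT. The cortical neuron list was high in the same libraries, CxH and MH, and its part in these differences was not tested.

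Itga4 and Itga9 form a related pair of alpha chains, of which alpha-4 is best known from leukocytes, where it binds Vcam1 and fibronectin. Itga4 had 338 reads in CxH against 193 in CxWT, and 614 in MH against 203 in MWT, or 8.78, 5.74, 16.4 and 7.01 RPM. It stood highest in MH, as Itga8 did, and was called higher in MH than in MWT (1.23 ± 0.12) and lower in CxH than in MH (-0.90 ± 0.10), with 0.61 ± 0.13 in CxH vs. CxWT. With the GC correction it was called in CxH vs. CxWT too, at 0.98, and no longer in CxH vs. MH, at -0.58. Its exons share up to 905 bases with Cerkl on the other strand, the most of any of the 28 genes. Itga9 was at 7.04, 6.96, 6.45 and 5.80 RPM, with intervals that overlapped among all libraries and no call.

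The laminin-binding alpha chains were Itga3, Itga6 and Itga7, which pair with beta-1, and alpha-6 also with beta-4. Itga3 had 409 reads in CxH against 944 in CxWT, and 442 in MH against 500 in MWT, or 10.6, 28.1, 11.8 and 17.3 RPM, with CxWT far above the rest. It was called lower in CxH than in CxWT, 2.64-fold (-1.40 ± 0.09), and higher in CxWT than in MWT at the edge of the threshold (0.70 ± 0.08). That last ratio was 0.26 with the GC correction and lost its call under 5 of the other alternatives as well. In MH vs. MWT the ratio was -0.55 ± 0.09, and the GC correction moved it to -1.12, which was called lower. Itga6 was at 20.5, 20.7, 17.5 and 26.0 RPM, with -0.01 ± 0.08 in CxH vs. CxWT and -0.57 ± 0.08 in MH vs. MWT, and was not called. Itga7, the alpha-7 chain of muscle, was at 9.64, 13.0, 11.0 and 8.60 RPM and was not called. Per kb, Itga3 stood at 1.20 of Itga6 in CxWT, but at 0.460 in CxH, 0.598 in MH and 0.588 in MWT, so CxWT was the only one of the 4 libraries where alpha-3 exceeded alpha-6. Oligodendrocyte markers, 10 in number, summed to 4895 RPM in CxH against 9319 in CxWT, and 5098 in MH against 7464 in MWT, in the same order as Itga3. The list of midbrain and diencephalon neurons had that order too, and the part of neither list was tested.

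The collagen-binding alpha chains were Itga1 and Itga10. Itga1, found on vascular cells, was at 6.03, 5.59, 6.37 and 6.67 RPM across CxH, CxWT, MH and MWT, with intervals that overlapped and ratios of 0.11 ± 0.14 in CxH vs. CxWT and -0.07 ± 0.14 in MH vs. MWT (0.33 and 0.05 with the GC correction). Itga10, described first in cartilage, had 117, 224, 168 and 124 reads, or 3.04, 6.66, 4.50 and 4.28 RPM, with CxH lowest and CxWT highest. It was called lower in CxH than in CxWT (-1.13 ± 0.16) and not in MH vs. MWT (0.07 ± 0.17, and -0.25 with the GC correction).

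Among the beta chains, Itgb2, Itgb3 and Itgb5 had a pattern of their own. Itgb2 encodes the beta-2 chain of leukocytes and, in brain, of microglia, and had 554 reads in CxH against 241 in CxWT, and 266 in MH against 308 in MWT, or 14.4, 7.17, 7.12 and 10.6 RPM. Itgb3, which pairs with alpha-V and with the platelet chain alpha-IIb, had 160, 70, 96 and 99 reads, or 4.16, 2.08, 2.57 and 3.42 RPM. Itgb5, which pairs with alpha-V as a vitronectin receptor, had 3164, 1513, 1597 and 1516 reads, or 82.2, 45.0, 42.7 and 52.4 RPM. For these 3 genes CxH was the highest library and MWT the next. For Itgb2 and Itgb5 all other libraries lay outside the interval of CxH and outside that of MWT, whereas for Itgb3 the interval of MWT overlapped those of CxH and MH.

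Itgb2 was called higher in CxH than in CxWT, 2.01-fold (1.01 ± 0.11), and higher in CxH than in MH, 2.02-fold (1.02 ± 0.11), with ratios of the other sign, -0.58 ± 0.12 and -0.57 ± 0.12, in MH vs. MWT and CxWT vs. MWT. Itgb5 was called in the same comparisons, at 0.87 ± 0.05 and 0.94 ± 0.04, with -0.29 ± 0.05 in MH vs. MWT and -0.22 ± 0.05 in CxWT vs. MWT. With the GC correction its ratio in CxH vs. CxWT was 0.63 and was not called, and in MH vs. MWT it was -0.73 and was called lower, as that of Itgb2 was at -0.71. Itgb3 was called higher in CxH than in CxWT (0.997 ± 0.21) and lower in CxWT than in MWT (-0.72 ± 0.23), the second call being lost under the assumed variation of 0.2, and its ratio in CxH vs. MH, 0.69 ± 0.19, was just under the threshold. In MH vs. MWT Itgb3 had -0.41 ± 0.21.

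The microglia list, 13 of 14 markers in the table and none at 0, summed to 831.7 RPM in CxH against 444.8 in CxWT, and 515.6 in MH against 680.2 in MWT, the order seen for Itgb3. Of these markers 8 were called higher in CxH vs. CxWT, 4 lower in MH vs. MWT, 7 higher in CxH vs. MH, but 6 lower in CxWT vs. MWT. The shares of all genes called so were 9.46, 12.7, 2.43 and 2.11%. The list of activated microglia, 12 of 13 in the table, summed to 373.3, 186.7, 181.9 and 427.2 RPM. Ids was low in the libraries where these beta chains were high, and high in the others. The astrocyte list of 10 markers had the same order in its sum, with 4054, 3029, 3286 and 3759 RPM, but its markers differed. In it Gfap, named here after its values were seen, had 603.5, 280.1, 253.4 and 554.9 RPM, and Aqp4 had 135.9, 236.7, 143.1 and 353.1. In CxH vs. CxWT, Gfap and Slc1a2 were called higher and Aqp4 lower, with a background of 9.46 and 11.5%. In MH vs. MWT, 0 were called higher and 3 lower (Aqp4, Gfap and S100b), with a background of 12.3 and 12.7%. The part of microglial or astrocyte RNA in the levels of Itgb2, Itgb3 and Itgb5 was not tested.

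**Figure D3:**
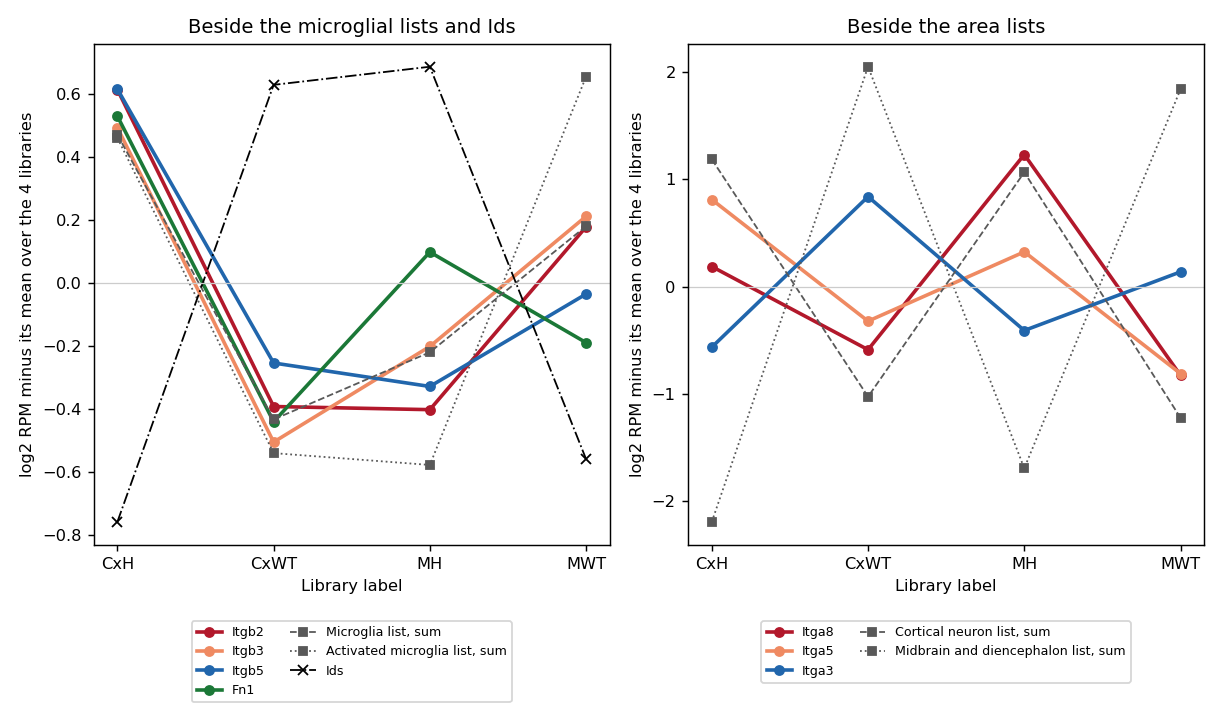
Level of selected genes and of marker lists in each library, as log2 RPM minus its mean over the 4 libraries, with lines joining the values of 1 gene or list. On the left Itgb2, Itgb3 and Itgb5 are highest in CxH and next highest in MWT, as the microglia list is, and Ids is lowest in CxH. On the right Itga5 and Itga8 are higher in CxH and MH than in CxWT and MWT, as the cortical neuron list is, and Itga3 is highest in CxWT.

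The promoter window of Itgb5 is printed as an example of windows rich in GC. It covers chr16:33829415-33829714 on the plus strand in GRCm38.p6, and its capitals mark matches to the GC box, GGGCGG or its reverse CCGCCC, the motif known to bind Sp factors.
Itgb5: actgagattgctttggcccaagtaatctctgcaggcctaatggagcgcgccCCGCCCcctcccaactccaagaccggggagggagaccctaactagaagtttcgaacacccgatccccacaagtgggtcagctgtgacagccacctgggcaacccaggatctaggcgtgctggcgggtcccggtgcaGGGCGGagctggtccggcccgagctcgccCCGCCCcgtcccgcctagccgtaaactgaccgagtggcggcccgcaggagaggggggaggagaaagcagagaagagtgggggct
RefSeq windows were at hand for 19 of the 28 genes, 21 windows in all. A GC box on either strand was in 14 of these 21 windows (66.7%), against 35.7% of 32851 windows of all genes. CCAAT, or its reverse ATTGG, was in 8 (38.1%, against 37.4%), and TATAAA, or its reverse TTTATA, was in 0 (against 13.6%). The median GC content was 63.7% in the windows of these genes and 52.7% in all windows. A match says only that the letters are present.

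The other beta chains were Itgb1, Itgb4 and Itgb8. Itgb1, the partner of most alpha chains described here, had 1792 reads in CxH against 2383 in CxWT, and 2268 in MH against 1870 in MWT, or 46.5, 70.9, 60.7 and 64.6 RPM. It was lowest in CxH and was called in no comparison, with -0.61 ± 0.05 in CxH vs. CxWT and -0.09 ± 0.05 in MH vs. MWT, and with the GC correction -0.37 and 0.13. Itgb4, the beta-4 chain that binds laminin with alpha-6, had 404, 611, 389 and 268 reads, or 10.5, 18.2, 10.4 and 9.26 RPM, with CxWT above the other 3 libraries. It was called lower in CxH than in CxWT (-0.79 ± 0.09) and higher in CxWT than in MWT (0.97 ± 0.11). The first call was lost with TMM scaling (-0.699) and under the assumed variation of 0.2 between pools. The second ratio was 0.37 with the GC correction, which also turned the ratio in MH vs. MWT from 0.17 to -0.62, a value still under the threshold. Up to 130 of its exon bases lie opposite B230344G16Rik. Itgb8, which pairs with alpha-V and is expressed by astrocytes and neural progenitors, was at 18.8, 27.8, 20.5 and 32.5 RPM, with ratios under the threshold in CxH vs. CxWT (-0.57 ± 0.07) and in MH vs. MWT (-0.67 ± 0.07), which were -0.17 and -0.49 with the GC correction.

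In sum over the 6 beta chains the level was 176.5 RPM in CxH against 171.2 in CxWT, and 144 in MH against 172.8 in MWT, and over the laminin-binding alpha chains it was 40.8, 61.8, 40.4 and 51.9 RPM. Itgb3bp, the centromere protein, had 59, 107, 71 and 92 reads, or 1.53, 3.18, 1.90 and 3.18 RPM. It was called lower in CxH than in CxWT (-1.05 ± 0.23) and lower in MH than in MWT (-0.74 ± 0.23), and lost both calls with the GC correction (-0.51 and -0.21). It has the lowest GC content of the 28 transcripts, 38.0%, and shares up to 398 exon bases with Pgm2 on the other strand.

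**Figure D4:**
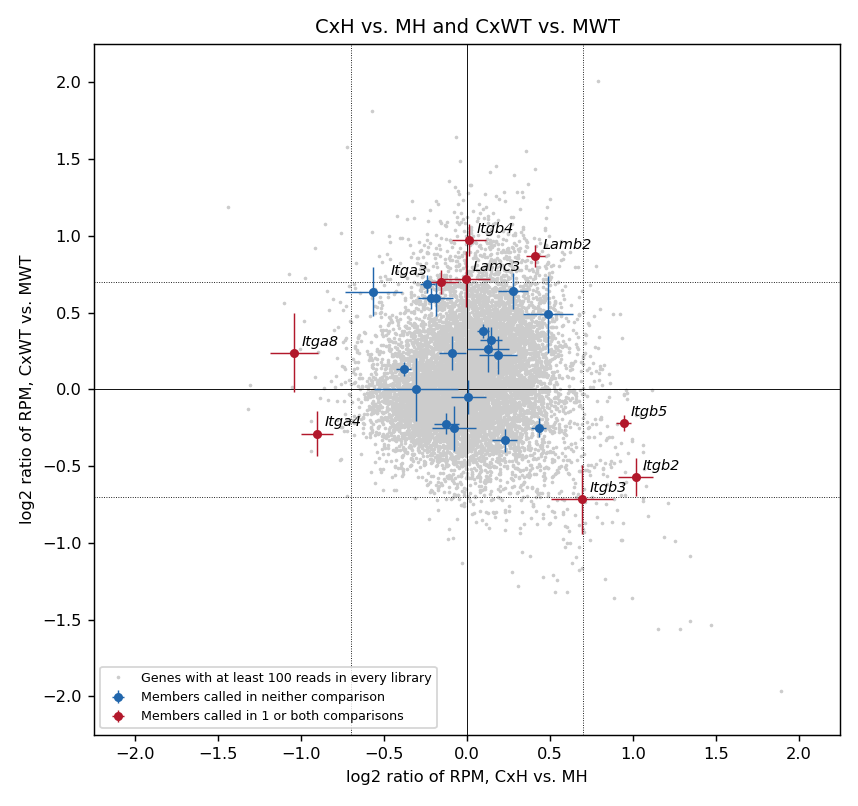
Log2 ratio of RPM in CxH vs. MH (x axis) against CxWT vs. MWT (y axis), with grey points for genes that had 100 or more reads in each library, red points for members called in either comparison, blue points for the other members, counting SEs as bars and dotted lines at log2 ratios of 0.7 in size. Itgb2, Itgb3 and Itgb5 lie on the right and under the horizontal axis, Itga4 and Itga8 on the left, and Itgb4, Lamb2, Lamc3 and Itga3 at the top.

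The log2 ratios followed GC content in these libraries. Over the 10809 genes that had 100 or more reads in each library, Spearman's rho of the ratio with the GC content of the longest protein-coding transcript was 0.46 in CxH vs. CxWT, 0.49 in MH vs. MWT, 0.63 in CxWT vs. MWT and 0.58 in CxH vs. MH. Across the 28 genes, which share these libraries, it was 0.0066, 0.32, 0.74 and 0.30 in the same order. In CxWT vs. MWT the GC-rich Itgb4, Lamb2 and Lama5 lay near the top of the range and the GC-poor genes lower. None of the 4 genes called higher in CxWT vs. MWT, Itga3, Itgb4, Lamb2 and Lamc3, was called after the correction.

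**Figure D5:**
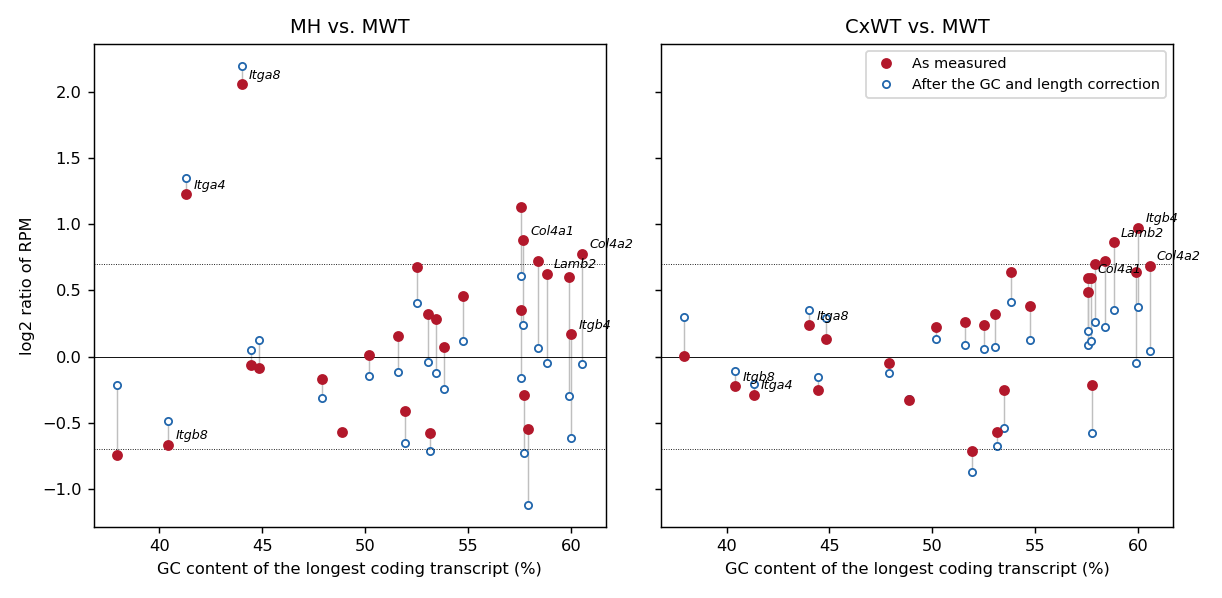
Log2 ratio of RPM of 27 of the genes (y axis) against the GC content of the longest protein-coding transcript in percent (x axis), for MH vs. MWT on the left and CxWT vs. MWT on the right. Filled points are ratios as measured, open points are ratios after the correction for GC content and length, grey lines join the points of 1 gene and dotted lines mark log2 ratios of 0.7 in size. On the right, filled points at the highest GC contents lie above those at the lowest and the open points of Itgb4, Lamb2 and Col4a2 lie under the threshold, while Itga8 and Itga4 on the left stay above it after correction.

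Of the integrin alpha chains that the rule leaves out, Itgav, the alpha-V partner of beta-3, beta-5 and beta-8, had 1889 reads in CxH against 1208 in CxWT, and 1702 in MH against 1208 in MWT. Itgam, the alpha-M partner of beta-2 and a marker of microglia, had 1275, 715, 955 and 898 reads, with log2 ratios of 0.64 in CxH vs. CxWT, -0.28 in MH vs. MWT, -0.54 in CxWT vs. MWT and 0.37 in CxH vs. MH. Neither was called, and the signs of Itgam were those of Itgb2 in each comparison. Itgal, Itgax, Itgad and Itgae were not analysed here.

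Inside the cell, integrins act through adaptors and kinases of the focal adhesion, of which 28 of a list of 30 were in the table. In CxH vs. CxWT 6 were called higher and 0 lower, the same counts as in MH vs. MWT, while CxH vs. MH had no call and CxWT vs. MWT had 2 higher. The shares of all genes called higher and lower were 9.46 and 11.5% in CxH vs. CxWT, and 12.3 and 12.7% in MH vs. MWT. They were 2.43 and 1.06% in CxH vs. MH, and 5.43 and 2.11% in CxWT vs. MWT. These shares apply to this list and to those after it, and a count near its share says nothing particular of a list. Ptk2b, the kinase Pyk2, known from forebrain neurons, had the largest ratios, 2.30 ± 0.03 in CxH vs. CxWT and 1.93 ± 0.04 in MH vs. MWT. Actn1, an actin crosslinker, followed with 1.45 ± 0.06 and 1.36 ± 0.07. Fermt3, the kindlin of blood cells, was higher in CxH vs. CxWT (1.16 ± 0.19), and Actn4, a relative of Actn1, in both (0.94 ± 0.04 and 1.17 ± 0.04). The genes called in CxWT vs. MWT were the adaptor Bcar1 (0.92 ± 0.07), also called in MH vs. MWT (1.04 ± 0.07), and zyxin, Zyx (0.80 ± 0.09). The median ratios of the list were 0.051 in CxH vs. CxWT and 0.24 in MH vs. MWT.

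Of 24 other ligands of integrins, 18 were in the table. In CxH vs. CxWT 8 were called higher and 1 lower, in MH vs. MWT 5 and 2, in CxWT vs. MWT 0 and 1, and in CxH vs. MH 3 and 0. The largest ratios were those of Thbs4, a thrombospondin (2.52 ± 0.19 in CxH vs. CxWT and 2.58 ± 0.21 in MH vs. MWT), Icam5, the telencephalic ligand of beta-2 integrins on neurons (2.20 ± 0.05 and 2.74 ± 0.06), and Ccn3, a matricellular protein (2.06 ± 0.07 and 2.08 ± 0.07). In CxH vs. MH the genes called were Tgfb1 (1.22 ± 0.15), Icam1 (1.09 ± 0.14) and Vwf (1.02 ± 0.07), and the same genes were called higher in CxH vs. CxWT (1.14 ± 0.16, 1.36 ± 0.15 and 1.24 ± 0.08). Icam1, a ligand of beta-2 integrins on vessels, was also the gene called lower in CxWT vs. MWT (-0.83 ± 0.17).

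Of 19 other basement membrane proteins, 15 were in the table, with 3 called higher and 3 lower in CxH vs. CxWT, 3 and 2 in MH vs. MWT, 4 and 0 in CxWT vs. MWT and 2 and 0 in CxH vs. MH. Sparc, a collagen-binding glycoprotein, was lower in CxH than in CxWT (-2.02 ± 0.02) and in MH than in MWT (-2.28 ± 0.02), and its relative Smoc2 was higher (2.16 ± 0.15 and 1.94 ± 0.16). Smoc1, named here after its values were seen, had -0.59 ± 0.08 and -0.89 ± 0.08, the second being called lower. Fbln2, a fibulin, was higher in CxH than in CxWT (1.04 ± 0.15) and in MH than in MWT (1.53 ± 0.18), and Col15a1 was lower in CxH than in CxWT (-1.25 ± 0.15) and higher in CxWT than in MWT (0.72 ± 0.15). Fbln1 (0.79 ± 0.12) and Tinagl1 (0.72 ± 0.14) were the 2 called in CxH vs. MH, and Tinagl1 was called in CxH vs. CxWT too (0.82 ± 0.15). In CxWT vs. MWT Col18a1, the source of endostatin, had the largest ratio (1.04 ± 0.16), and it was lower in CxH than in CxWT (-1.18 ± 0.15).

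For collagen assembly and remodelling 17 of 23 genes were in the table. In CxH vs. CxWT 1 was called higher and 4 lower, in MH vs. MWT 1 and 2, in CxWT vs. MWT 1 and 0, and in CxH vs. MH 1 and 1. Pxdn, the peroxidase that forms the sulfilimine bonds of collagen IV, was higher in CxH than in CxWT (0.76 ± 0.05) and in MH than in MWT (1.42 ± 0.05). P4ha3, a prolyl hydroxylase subunit, was lower in CxH than in CxWT (-1.50 ± 0.18) and in MH than in MWT (-1.15 ± 0.18), and Timp2, an inhibitor of metalloproteinases, was lower in the same comparisons (-0.83 ± 0.02 and -1.06 ± 0.02). Plod2, a lysyl hydroxylase, was lower in CxH than in CxWT (-1.46 ± 0.23) and than in MH (-0.83 ± 0.24).

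Of the dystroglycan complex and the enzymes that glycosylate it, 20 of 26 genes were in the table. In CxH vs. CxWT 2 were called higher and 4 lower, in MH vs. MWT 1 and 2, and neither CxH vs. MH nor CxWT vs. MWT had a call. Sntb2, a syntrophin, was higher in both, at 0.89 ± 0.15 and 1.58 ± 0.16. Sspn, sarcospan, was lower in both, at -0.88 ± 0.11 and -0.78 ± 0.11. Dtnb, a dystrobrevin of neurons, was higher in CxH than in CxWT (0.92 ± 0.07), and Sntb1, another syntrophin, was lower (-1.34 ± 0.25).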

How the data were processed

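RNA-Seq of polyA RNA from 4 libraries, CxH, CxWT, MH and MWT, was used. The authors sequenced on a SOLiD 3 Plus instrument, aligned to NCBI37/mm9 with PASS 2.10 (best hit, at most 2 mismatches), and deposited raw counts of reads on a single gene, keeping genes with over 50% of their length covered. The annotation they used is not given in the sources used here. Library totals were the aligned reads stated by the study.

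Entrez identifiers were matched to RefSeq symbols for 12690 of the 12700 genes. GENCODE vM1 on NCBIM37, the same build as mm9, gave positions, GC content and transcript length, and RefSeq on GRCm38.p6 gave promoter windows. The counts were scaled to RPM. Every gene was compared by a likelihood ratio test on Poisson counts, called where the p-value was under 0.05 and the log2 ratio 0.7 or more in size, and with no test between conditions, since each has 1 library. Genes, lists and tests were chosen with earlier results of these data known. Of the 28 members, 27 were named with their levels, 1 enters the counts, medians and sums but is not reported here, and log2 ratios were given for those called in any comparison, for the member with most reads in each role, and for a few others chosen after their values were seen. From other lists, up to 3 called genes with at least 100 reads and the largest ratios in a comparison were named, besides Itgav, Itgam and Smoc1.

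Alternatives were other scalings, filters and thresholds, adjusted p-values, assumed variation between pools, and a correction of log2 ratios for GC content and transcript length, fitted to genes that had 100 or more reads in each library. Steps were tested on simulated data. Intervals cover counting error only. The tools were R 4.3.3, edgeR 4.0.16, DESeq2 1.42.0 and Python 3.11.15 with scipy 1.17.1, pandas 2.3.3, numpy 2.4.6 and matplotlib 3.10.9.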

Additional observations from a re-analysis of the deposited data

Results flagged for a closer look

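For 4 of the genes called in CxH vs. CxWT or in MH vs. MWT, these log2 ratios, between the libraries labelled Ids-ko and WT, had opposite signs, each past its 95% counting interval. The ratio was 1.01 in CxH vs. CxWT and -0.58 in MH vs. MWT for Itgb2, 0.997 and -0.41 for Itgb3, 0.87 and -0.29 for Itgb5, and -0.15 and 0.78 for Col4a2. With the correction for GC content and length the ratios of Col4a2 were -0.50 and -0.06, of the same sign. Itga7, called in neither comparison, had -0.43 and 0.35, and -0.69 and -0.16 with the correction. Of the genes called in CxH vs. MH or in CxWT vs. MWT, 3 had opposite signs by the same measure, with -0.57 in CxWT vs. MWT and 1.02 in CxH vs. MH for Itgb2, -0.72 and 0.69 for Itgb3, and -0.22 and 0.94 for Itgb5. None of these differences between comparisons was tested, because each condition had 1 library. In M, Ids reads went against the genotype labels.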

How the results depend on the processing

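No paired analysis was possible because each condition had 1 library and the labels gave no replicate numbers. For the same reason no library could be left out. Among the genes described, the calls of Itga3, Itga5, Itga10 and Itgb2 in CxH vs. CxWT, of Itga4 and Itga8 in MH vs. MWT, and of Itga8 and Itgb2 in CxH vs. MH held under all 10 alternatives. With a log2 threshold of 1, the number called higher fell to 3 in CxH vs. CxWT, 4 in MH vs. MWT, 0 in CxWT vs. MWT and 1 in CxH vs. MH, and the number called lower to 0 in MH vs. MWT, 0 in CxWT vs. MWT and 1 in CxH vs. MH. The shares of all genes called at this threshold, and at the other settings except the GC correction, are not given here. Whether such changes are particular to these genes therefore cannot be told. With the correction for GC content and length, 3 were called higher and 3 lower in MH vs. MWT, 0 higher in CxWT vs. MWT and 1 lower in CxH vs. MH, and the ratio of Col4a2 in MH vs. MWT turned to -0.059. The gene called lower in MH vs. MWT, Itgb3bp, became 2 genes with column totals as library totals and 0 with TMM factors, with DESeq2 size factors, with at least 100 reads required or under a biological coefficient of variation set at 0.2. In CxWT vs. MWT, 2 were called higher with column totals, with TMM factors, with DESeq2 size factors or with that variation of 0.2, and 0 were called lower with at least 100 reads required or with that variation. Adjusted p-values, 0.5 added to each count and an assumed variation of 0.1 changed none of the 116 results compared. The cause of the other changes was not tested. The variation between pools is unknown, and the reads per gene and library set the counting error only.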
